A study of Lathyrus oleraceus with 4 samples.

Results

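Of 127533 assembled pea genes, 46 (0.0361%) were lower after a short heat episode in unopened flower buds of both cultivars examined. They were chosen from the deposited expression values themselves. In each cultivar's table the lower of the 2 control columns had to reach 2, and that column plus 0.5 had to be at least 2 times the higher heat column plus 0.5. The values are counts per assembled gene that the authors scaled to similar column totals (TMM values). Since every heat and every control column entered the choice, the differences between heat and control given here describe the chosen genes and were not tested.

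RNA was sequenced from unopened buds of pea (Pisum sativum, listed as Lathyrus oleraceus) collected before the flower opens. Control plants of Arka Chaitra, described by the submitters as heat-tolerant, and of Matar Ageta, described as susceptible, were held at 22 °C in the day and 16 °C in the night. Heated plants of each cultivar were kept at 35 °C for 2 h. The 4 samples are 1 library per combination of cultivar and treatment. No group therefore has a second sample, and no label gives the number of plants or says whether they were pooled. The genotype tag of each sample names the other cultivar than its title does, in 4 of 4 samples, so cultivars are named here by title. Every label gives the same batch entry, which names the genotype. If batches did go with the cultivar, they could not be told apart from the cultivar.

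Heat stress is known to reprogramme plant transcription within a short time. Heat shock transcription factors switch on genes for chaperones, which keep proteins folded, while transcripts for growth, cell division and many housekeeping functions are commonly reduced. Developing anthers are among the most heat-sensitive tissues of a flower, because pollen depends on the tapetum, a nutritive cell layer of the anther that is easily disturbed by high temperature. The identifiers of the 46 genes carry no names, and 0 of all identifiers matched the 65673 genes of the pea reference table, so no function, pathway, bud tissue marker or sequence can be given for them. In whole buds, fewer cells of a type and less RNA per cell cannot be told apart.

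Each library is present as 2 numbered columns, whose meaning is not labelled, and single columns held between 10411488 and 21625288 estimated counts. Summed over its columns, a library held between 22721707 and 32711024. A count of 0 in a summed heat library, with 3 counts as its limit, allows up to 0.131 CPM (counts scaled to a common library size) in Arka Chaitra and 0.0896 CPM in Matar Ageta. This limit and the intervals given for single genes cover counting error only. Values carry no gene length, so they compare a gene with itself across libraries and not 1 gene with another.

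By the rule, 1672 of 30730 genes with enough control signal (5.44%) were lowered in Arka Chaitra and 1072 of 27931 (3.84%) in Matar Ageta. Both control libraries carried enough signal for 20684 genes, and the 46 were 0.222% of these. Of the same 20684 genes, 845 (4.09%) were lowered in Arka Chaitra and 578 (2.79%) in Matar Ageta, the 46 included each time. The 46 genes made up 2.75% of all 1672 genes lowered in Arka Chaitra and 4.29% of all 1072 lowered in Matar Ageta. For 827 (49.5%) of the genes lowered in Arka Chaitra a Matar Ageta control column was under 2, and for 494 (46.1%) of those lowered in Matar Ageta an Arka Chaitra control column was under 2, so these could not be counted in both. The mirrored rule found 100 genes raised in both cultivars, or 0.507% of 19723 with enough heat signal. Opposite directions were found for 68 genes raised in Arka Chaitra and lowered in Matar Ageta, and for 21 with the reverse.

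**Figure D1:**
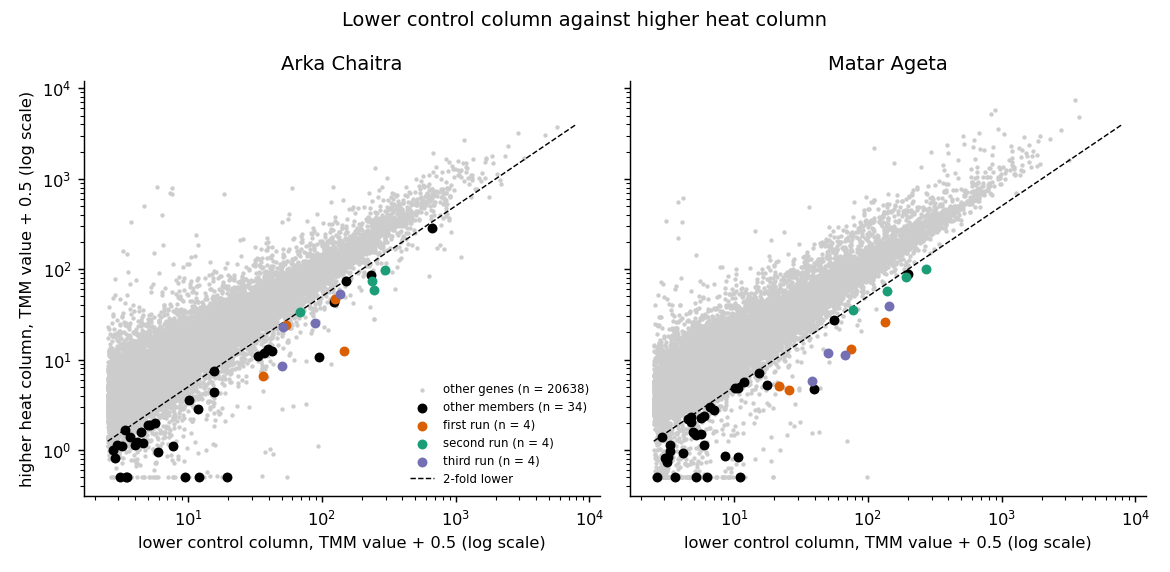
The lower control column (x axis) is plotted against the higher heat column (y axis), both as deposited TMM value plus 0.5 on log scales, for the 20684 genes with at least 2 in the lower control column of both cultivars. Each point is 1 gene, the dashed line marks a 2-fold difference, and the 46 chosen genes lie below it in both panels by the rule that chose them.

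The 46 genes covered a wide range of values in control buds. Their TMM values in the Arka Chaitra control ran from 2.26 to 661 in the first column (quartiles 4.70 and 87.5) and from 2.32 to 846 in the second (quartiles 3.96 and 84.8). After heat, the 2 Arka Chaitra columns had medians of 3.19 and 2.30, with highest values of 280 and 285. In Matar Ageta the control columns ran from 2.15 to 531 (quartiles 4.46 and 114) and from 2.40 to 273 (quartiles 5.85 and 54.0). The Matar Ageta heat columns had medians of 1.71 and 1.33, with highest values of 101 and 88.9. At least 100 CPM in control was reached by 10 of the 46 in Arka Chaitra and by 8 in Matar Ageta, which is 21.7% and 17.4%. Among all 20684 genes the shares were 7.50% and 7.71%.

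With the columns of a library summed, the median log2 ratio of heat to control (CPM plus 0.5) over the 46 was -2.01 in Arka Chaitra and -2.63 in Matar Ageta. The medians over the 20684 genes were -0.08 and -0.10. The order of the cultivars turned when any 1 of the 4 Matar Ageta columns was left out of the rule, which also changed the genes chosen (Matar Ageta -1.42 to -1.96, Arka Chaitra -1.94 to -2.01). The log2 ratios ran from -5.39 to -1.14 in Arka Chaitra and from -6.47 to -1.29 in Matar Ageta. At least 4-fold lower summed levels were found for 24 of the 46 in Arka Chaitra and 31 in Matar Ageta, and at least 8-fold lower levels for 7 and 21. Over the 20684 genes, 1.72% and 2.59% were at least 4-fold lower and 0.522% and 1.54% at least 8-fold lower. The ratio was the lower one in Arka Chaitra for 21 of the 46 (45.7%, against 48.6% of the 20684 genes). For 30 of the 46 (65.2%) the ratios of the 2 cultivars lay within 2-fold of each other, against 82.3% of the 20684 genes. Measured as the rule does, from the lower control to the higher heat column, the drop reached 4-fold in both cultivars for 8 genes and 8-fold in both for 3. Across the 46 genes, these drops (log2) gave a Pearson's r between the cultivars of 0.536, and the rank correlation (Spearman's rho) was 0.245. These genes are not independent, and the rule cuts off every drop under 2-fold.

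**Figure D2:**
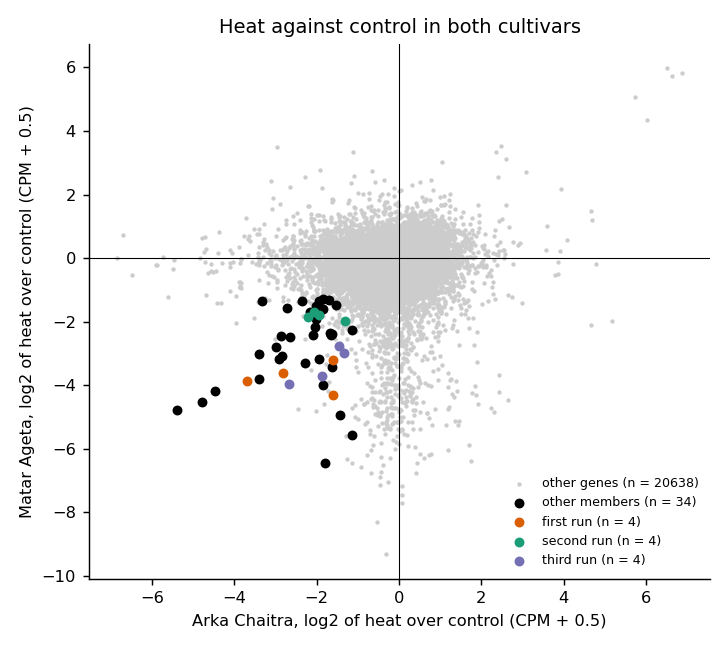
The log2 ratio of heat to control (CPM plus 0.5, columns summed) in Arka Chaitra (x axis) is plotted against that in Matar Ageta (y axis) for 20684 genes, each point being 1 gene. The 46 chosen genes, coloured by the runs of cluster numbers described in the text, occupy the lower left, from -5.39 to -1.14 on the x axis and from -6.47 to -1.29 on the y axis.

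Some of the 46 had no reads left after heat. In TRINITY_GG_69080_c0_g1, the gene with the largest drop in the cultivar where it dropped less, the Arka Chaitra control columns held TMM values of 19.1 and 20.9 and the Matar Ageta control columns 16.2 and 10.6. All 4 heat columns were at 0. With 473 control counts in Arka Chaitra and 408 in Matar Ageta against a limit of 3 counts per heat library, the level after heat was at least 156-fold lower in Arka Chaitra and, in Matar Ageta, at least 148-fold. With the counting error of the control included, the lower ends of the exact 95% intervals were 127-fold and 119.9-fold. The groups did not overlap in either cultivar, which the rule required.

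Further genes behaved in the same way, so that 4 of the 46 were at 0 in all 4 heat columns. These are also the only such genes among the 20684 (0.0193%), because a gene at 0 after heat in both cultivars meets the rule. One of them had control TMM values of 14.9 and 11.6 in Arka Chaitra and of 4.66 and 17.9 in Matar Ageta, at least 102-fold and 122-fold above the limit. The remaining pair had control values between 2.15 and 4.45 in every column, so that drops of at least 23.5-fold to 41.4-fold were the most that their counts of 69 to 114 could show. Both heat columns were at 0 for 6 of the 46 in Arka Chaitra (42 of the 20684 genes) and for 5 in Matar Ageta (129 of the 20684). An assembly can split a gene over several entries, so a 0 does not show that a gene was silent.

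At the other end of the scale, TRINITY_GG_11530_c0_g1 kept a sizeable level after heat. It had the highest value in its lowest control column, 267 CPM, of the 46. Its TMM values were 445 and 296 in the Arka Chaitra control and 90.9 and 98.3 after heat. In Matar Ageta they were 286 and 273 in control and 101 and 46.9 after heat. Heat columns lay below control columns in both cultivars, and the heat columns of Matar Ageta were farther apart than those of Arka Chaitra. Summed, the gene was 3.85-fold lower in Arka Chaitra (370 against 96.1 CPM, exact 95% counting interval 3.67 to 4.04). In Matar Ageta it was 3.48-fold lower (276 against 79.3 CPM, interval 3.33 to 3.63).

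A large part of the 46 lay close to the limits of the rule. The smaller of the 2 drops was under 2.5-fold in 20 of them, and 12 had a control column between 2 and 3. The member closest to the limit dropped 2.01-fold in Matar Ageta, from 4.23 and 5.10 to 1.85 and 1.24. In Arka Chaitra it went from 4.55 and 5.44 to 0.744 and 1.41. Just outside, a gene with 10.4 and 9.40 in the Matar Ageta control and 4.47 and 3.22 after heat reached 1.99-fold. Another 33 genes had a smaller drop between 1.8-fold and 2-fold.

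The identifiers give each gene a cluster number, and 12 of the 46 stood in 3 runs of 4 genes with nearby numbers. A run was taken as at least 3 chosen genes with steps of no more than 50 between neighbouring numbers, a limit set after the numbers were seen. The runs spanned 27, 30 and 8 cluster numbers out of 69607 clusters in all. Whether neighbouring numbers stand for neighbouring genes on a chromosome was not tested. Another of the 46 was found within 10 cluster numbers for 11 genes (23.9%). The corresponding share was 15% of the 100 genes raised in both cultivars, 10.3% of the 68 raised in Arka Chaitra and lowered in Matar Ageta, and 9.52% of the 21 with the reverse. Within 50 numbers the shares were 30.4%, 35.0%, 29.4% and 19.0%. The sets differ in size, which by itself changes such a share, and no share for genes outside these sets was computed.

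The 4 genes of the first run had TMM values of 43.3 to 161 in the first and 35.7 to 145 in the second Arka Chaitra control column. After heat they held 6.05 to 43.2 and 3.96 to 45.8. In Matar Ageta the control columns held 78.7 to 299 and 21.0 to 135, and the heat columns 4.11 to 25.6 and 1.74 to 19.6. All 4 genes had a higher first than second Matar Ageta control column, by 2.29 to 4.97 times (CPM). The gene with the deepest drop of the run in Arka Chaitra went from 161 and 145 to 10.9 and 11.8 there. In Matar Ageta the same gene went from 209 and 74.8 to 12.7 and 3.51. The gene with the shallowest went from 85.7 and 53.8 to 23.6 and 20.6 in Arka Chaitra and from 121 and 25.2 to 4.11 and 1.74 in Matar Ageta. Drops by the rule were 2.25-fold to 11.8-fold in Arka Chaitra and 4.19-fold to 5.69-fold in Matar Ageta.

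The second run, which contains TRINITY_GG_11530_c0_g1, had a more even pattern. Its genes held 83.1 to 445 and 67.7 to 339 in the Arka Chaitra control and 33.0 to 90.9 and 25.8 to 98.3 after heat. In Matar Ageta they held 122 to 320 and 76.9 to 273 in control and 34.8 to 101 and 8.14 to 76.3 after heat. The 2 Matar Ageta control columns were 1.08 to 1.79 times apart, the first again the higher in all 4 genes. The median log2 ratio of the run was -2.00 in Arka Chaitra and -1.83 in Matar Ageta. Control levels of the 2 cultivars lay within a log2 ratio of -0.38 to 0.51 of each other, and heat levels within -0.12 to 0.29.

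The last of the runs had column values like those of the first. Its Arka Chaitra control columns held 50.3 to 137 and 49.98 to 148, and the heat columns 7.78 to 52.5 and 7.99 to 49.7. The Matar Ageta control columns held 116 to 367 and 37.9 to 143, and the heat columns 5.24 to 37.9 and 3.35 to 38.5. The first Matar Ageta control column was 2.66 to 3.16 times the second in all 4 genes. The median log2 ratio of heat to control was -1.66 in Arka Chaitra and -3.36 in Matar Ageta, and in the first run it was -2.22 and -3.74. With the columns summed, the control level in both runs was similar in the cultivars or higher in Matar Ageta. The log2 ratio of Arka Chaitra to Matar Ageta was -0.64 to 0.13 in the first run and -0.80 to -0.47 in the third. This order depends on the column. In every gene of both runs the first Matar Ageta control column was above both Arka Chaitra control columns, and the second was not. The TMM values of the cultivars were scaled separately. The summed level after heat was higher in Arka Chaitra for every gene of both runs (log2 ratio 0.31 to 2.65 and 0.49 to 1.40).

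**Figure D3:**
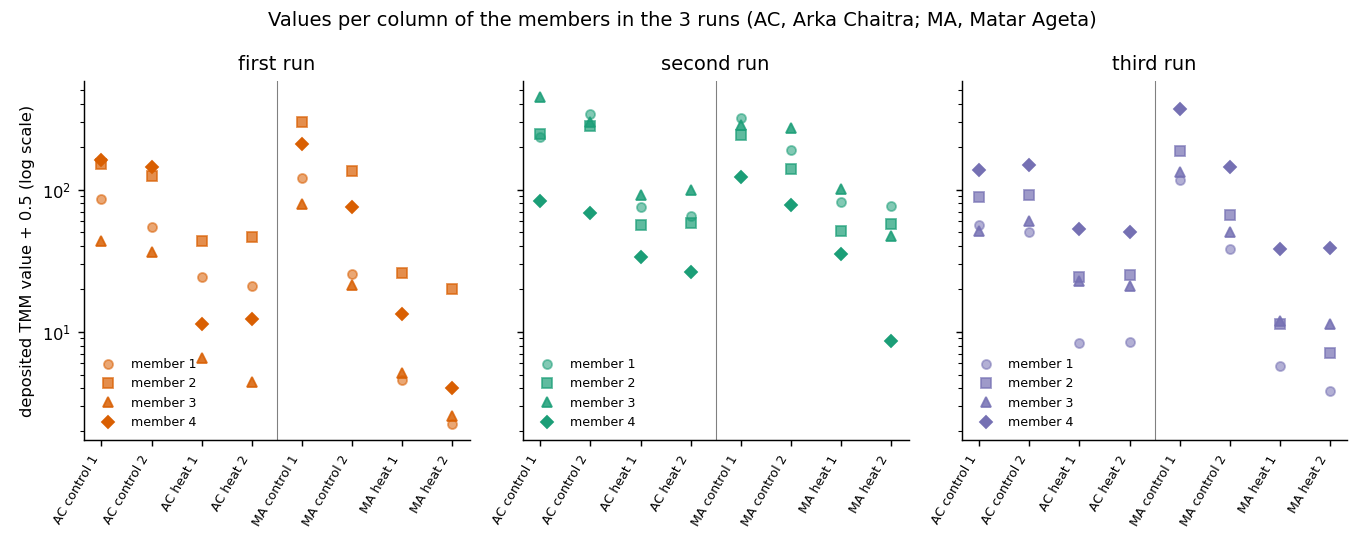
Deposited TMM value plus 0.5 (y axis, log scale) in each of the 8 columns (x axis) for the 12 genes of the 3 runs, with 1 symbol per gene and panels by run. For each gene the control columns lie above the heat columns of the same cultivar, and in the first run and the third the first Matar Ageta control column lies well above the second.

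The lower level after heat did not extend to most entries numbered between these genes. Within the first run 15 other entries had enough control signal in both cultivars, and their median log2 ratio was -0.38 in Arka Chaitra and -0.11 in Matar Ageta. By summed level, 2 of the 15 were at least 2-fold lower in Arka Chaitra and 2 in Matar Ageta, and both of the entries that met the rule in Matar Ageta share a cluster with a chosen gene. The second run had 9 such entries, with medians of -0.17 and -0.20, and the third had 6, with medians of 0.10 and 0.22. None of these 15 reached a 2-fold lower level in either cultivar. With 20 further cluster numbers on each side, 4 of 34 other entries around the first run were 2-fold lower in both cultivars. This held for 0 of 19 around the second and 0 of 15 around the third. The share of all 20684 genes that were 2-fold lower in both by summed level was not computed. In single cultivars, 4 of the 34 around the first run were 2-fold lower in Arka Chaitra and 7 in Matar Ageta. The shares over the 20684 genes were 8.54% and 7.63%.

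**Figure D4:**
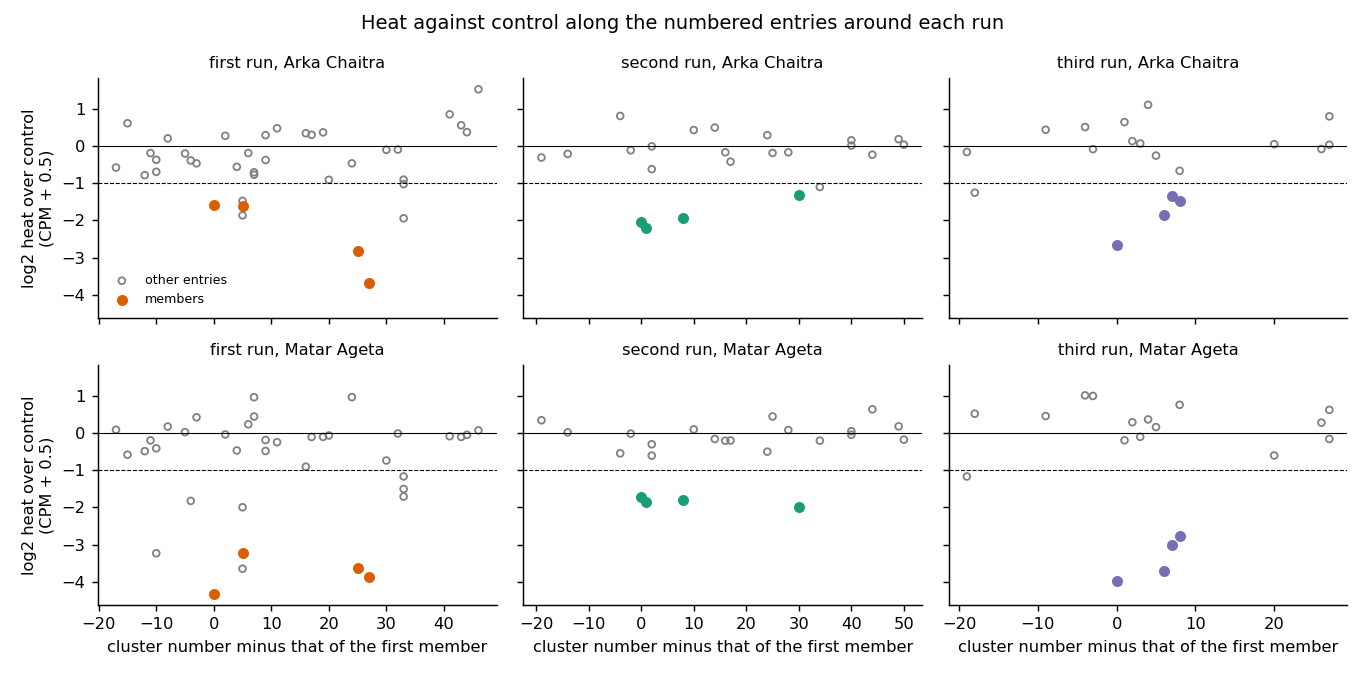
The log2 ratio of heat to control (CPM plus 0.5, y axis) is plotted against the cluster number relative to the first chosen gene of each run (x axis), for entries with at least 2 in the lower control column of both cultivars, with Arka Chaitra above and Matar Ageta below. Filled points are the 4 chosen genes of each run, open points other entries, and the dashed line marks 2-fold lower. Most open points lie near 0, and the filled points lie between -1.32 and -4.33.

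The 34 genes outside the runs had a lower median control level than the 12 genes in runs. It was 7.76 CPM in Arka Chaitra and 9.83 CPM in Matar Ageta for the 34, and 115 and 134 CPM in the runs. Over the 20684 genes the medians were 11.1 and 12.1 CPM. The 34 also include a gene at 775 CPM in the Arka Chaitra control. The median log2 ratio of heat to control of the 34 was -2.03 in Arka Chaitra and -2.45 in Matar Ageta, against -1.90 and -3.11 in the runs. The first Matar Ageta control column was the higher in 16 of the 34 and in all 12 genes of the runs. Among the 20684 genes it was the higher in 46.8%.

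The columns of the Matar Ageta control differed more for the 46 genes than for others. They were at least 2-fold apart in 21 of the 46 (45.7%), against 11.3% of the 20684 genes. In the Arka Chaitra control the corresponding shares were 6.52% and 6.38%. In 10 of the 46 the first Matar Ageta column was at least 2-fold higher, a pattern found in 5.25% of the 20684 genes, and 8 of these 10 belong to the first run and the third. All 10 had Arka Chaitra control columns within 2-fold of each other, at ratios of 0.765 to 1.59. In 11 of the 46 the second Matar Ageta column was at least 2-fold higher (6.04% of the 20684 genes), and none of the 11 was in a run. Over the 10 genes the median log2 ratio of heat to control was -1.76 in Arka Chaitra and -3.67 in Matar Ageta. Over the 11 genes it was -1.94 and -3.43. For the 25 genes with Matar Ageta control columns within 2-fold it was -2.09 and -1.87. Matar Ageta had the larger drop in 10, 8 and 7 genes of these classes. The classes were set by control columns that also enter these ratios. The part of the column differences in the drop of Matar Ageta was not tested.

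Cultivar differences in control were under 2-fold for most of the 46 genes, though their quartiles lay farther apart than those of the 20684. The median log2 ratio of Arka Chaitra to Matar Ageta in control was -0.04 over the 46 genes, with quartiles of -0.63 and 0.56. Over the 20684 genes it was -0.06, with quartiles of -0.37 and 0.23. At least 2-fold higher control levels were found in Arka Chaitra for 6 of the 46, where the background was 5.65%, and in Matar Ageta for 4, where it was 8.56%. After heat, 13 of the 46 had at least 2-fold higher levels in Arka Chaitra (background 8.71%) and 6 in Matar Ageta (background 13.6%). The median log2 ratio after heat was 0.29. With 1 library per group these differences have no replicate check. The rule also limits them in control, since both cultivars had to carry enough signal.

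The 6 genes higher in the Arka Chaitra control shared a further feature. In all 6 the second Matar Ageta control column was above the first, as in 66.6% of the 1169 genes with such a cultivar difference and 53.1% of all 20684. The gene with the largest difference had TMM values of 661 and 846 in the Arka Chaitra control and of 280 and 285 after heat. In Matar Ageta its control columns held 2.63 and 33.3 and its heat columns 0 and 0.232. A second gene held 127 and 124 in the Arka Chaitra control and 43.1 and 27.6 after heat, and in Matar Ageta 5.71 and 85.2 in control and 0 in both heat columns.

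In 5 of the 6 the second Matar Ageta column was at least 2-fold above the first. These 5 held 2.40 to 8.02 in the first and 5.93 to 85.2 in the second Matar Ageta control column, and no more than 1.07 in any Matar Ageta heat column. Among the 20684 genes, 390 combined a 2-fold higher Arka Chaitra control with a 2-fold higher second Matar Ageta control column. Of these, 314 (80.5%) had a summed level at least 2-fold lower after heat in Matar Ageta, and 32 (8.21%) had one in Arka Chaitra. The shares over all 20684 genes were 7.63% in Matar Ageta and 8.54% in Arka Chaitra. The summed Matar Ageta control includes the second column used to pick the 390, so their share there is partly set by that choice. The 5 genes themselves were chosen for being lower in both cultivars. What makes the 2 Matar Ageta control columns differ for such genes was not tested.

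**Figure D5:**
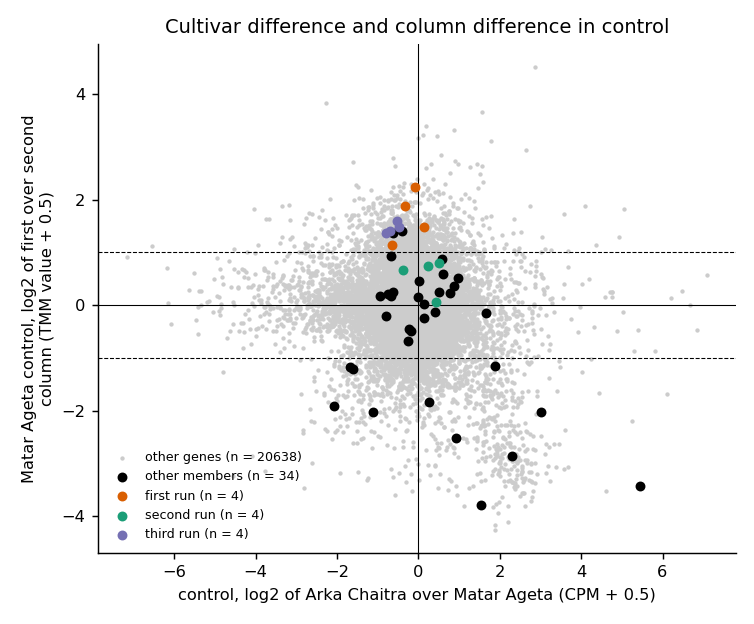
The log2 ratio of Arka Chaitra to Matar Ageta in control (CPM plus 0.5, x axis) is plotted against the log2 ratio of the first to the second Matar Ageta control column (TMM value plus 0.5, y axis) for 20684 genes, each point being 1 gene, with dashed lines at 2-fold. Genes of the first run and the third lie above the upper dashed line, and 5 of the 6 chosen genes that were 2-fold higher in Arka Chaitra lie below the lower one.

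The 4 genes higher in the Matar Ageta control were all of low count in Arka Chaitra. Their summed control levels were 2.60 to 3.29 CPM in Arka Chaitra and 7.69 to 12.5 CPM in Matar Ageta. After heat they held 0 to 1.08 CPM in Arka Chaitra and 0.394 to 1.797 CPM in Matar Ageta. The second Matar Ageta control column was again the higher in all 4, for instance 20.7 against 5.11 in the gene with the largest cultivar difference.

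Because an assembly can divide a gene among entries of 1 cluster, the level of the whole cluster was also examined. Of the 46 genes, 29 (63.0%) were the only entry of their cluster, compared with 44.2% of the 20684. For these 29 the cluster's level is the gene's own, which the rule fixed. Summed over all entries, 41 of the 46 clusters were at least 2-fold lower in both cultivars, these 29 included (1.14% of the 20684 genes lie in such clusters). In the 17 clusters of several entries, which held 56 other entries, the whole cluster, chosen gene included, was 2-fold lower in both cultivars for 12. In each of these 12 the chosen gene held at least 50% of the cluster's control level in both cultivars. Its own drop, which the rule fixed, therefore makes up much of the drop of the sum. None of the 56 met the mirrored rule for genes raised in both cultivars, none met the rule for a lower level in Arka Chaitra, and 2 met it in Matar Ageta. Entries under 2 in a control column could not meet the rule, and those under 2 in a heat column could not meet the mirrored rule. How many of the 56 these limits left out was not counted. In some of the 17 clusters the other entries together held 0 CPM in both controls.

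In 5 clusters the sum was not 2-fold lower in both cultivars, and in each of them the chosen gene held under 50% of the cluster's control level in Arka Chaitra. One chosen gene, at 0 in all heat columns, made up 9.82% of its cluster's control level in Arka Chaitra and 5.45% in Matar Ageta. The other entries of that cluster went from 28.2 to 34.7 CPM in Arka Chaitra and from 64.4 to 31.5 CPM in Matar Ageta. In a second cluster, of 22 entries, the others went from 8.29 to 10.3 CPM and from 5.25 to 11.8 CPM, while the chosen gene made up 43.3% and 38.1% of the control level. Another chosen gene, at 16.3% and 10.6% of its cluster, was accompanied by entries that went from 29.9 to 25.8 CPM and from 33.6 to 29.2 CPM. The first of these clusters was 2-fold lower as a whole in Matar Ageta (log2 ratio -1.10) and not in Arka Chaitra (0.15). The other two were 2-fold lower in neither cultivar.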

How the data were processed

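RNA-seq libraries of 4 bud samples were analysed from 2 tables per cultivar. The authors deposited expected counts per assembled gene, which are estimates and not whole numbers, and a signal that is the deposited count times 1 constant per column, marked TMM and scaled within each cultivar's table. The submitters' processing notes list STAR, Bowtie2, RSEM, DESeq2 and FastQC without versions or roles. Genome build and assembly steps: not given in the sources used here. Groups follow the sample titles. The 2 columns of a library were taken as measurements of 1 sample.

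The 46 genes and the lists around them were chosen with earlier results of these data known. The rule was applied to the deposited TMM signal. For ratios and for levels across cultivars, the columns of a library were summed and scaled by TMM over the 4 libraries (edgeR 4.0.16, R 4.3.3), giving CPM with a pseudocount of 0.5 in log2 ratios. Exact 95% intervals are Clopper-Pearson, on rounded counts. No p-value was computed, because the rule uses the heat contrast and each group holds 1 library. The rule was also run on simulated counts in which both columns of a library shared the same expected level. That check does not cover control columns that differ, as they did for many of the 46 in Matar Ageta. Identifiers are printed for the gene with the highest lowest control column and the gene with the largest smaller drop only, since they have no names. Entries of the same clusters that met the raised rule would also have been printed, and there were 0. Alternatives varied the rule, the scale, the pseudocount and the columns used.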

Additional observations from a re-analysis of the deposited data

How the results depend on the processing

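All alternatives kept negative medians of the heat ratio in both cultivars, which the rule requires. The number of chosen genes was 82 with a control limit of 1, 25 with a limit of 5, 8 with a 4-fold drop and 579 with column means, all of the 46 being among the 82 and the 579. On CPM it was 44, of which 41 were among the 46. Without each of the 8 columns in turn it was 75 to 163, always including the 46, since fewer columns relax the rule. The median log2 heat ratio of Matar Ageta was -2.37 and -3.01 with rule pseudocounts of 0 and 1, -2.44 and -3.00 with control limits of 1 and 5, -3.92 with a 4-fold drop and -2.05 with means. It was -3.30 and -2.21 with 0.1 and 1 CPM as pseudocount. That of Arka Chaitra was -3.28 with a 4-fold drop, -1.75 with means, and -2.20 and -1.85 with those pseudocounts. Without 1 column these medians were -2.83 to -1.42 and -2.01 to -1.68, and the cultivar ratio in control was -0.36 to 0.78, so its sign depends on the columns. The lower median of Matar Ageta turned without any 1 of its 4 columns. Clusters lower as a whole made up 100% with a limit of 5, 68.9% with means, 97.8% when summed by component, and 63.3% to 74.7% without 1 column. Genes at 0 after heat made up 22.0% with a limit of 1, 50% with a 4-fold drop and 3.81% to 16.7% without 1 column. Added after seeing the data, the Matar Ageta median was -2.45 outside the runs and -2.47 without the genes 2-fold higher in the Arka Chaitra control. The cause of these shifts was not tested. Settings that altered the rule or its columns also changed the genes chosen, while the CPM pseudocounts and the sum by component kept the 46. No paired analysis was possible because no group has a second sample and no test was made.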
